A study of Caenorhabditis elegans with 6 samples.

Results

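The miRNAs described here are cel-miR-63-3p, cel-miR-64-5p, cel-miR-65-5p, cel-miR-66-5p and cel-miR-229-5p of the nematode Caenorhabditis elegans, written without the species prefix from here on. They were taken by probe name, the passenger strands left out, which gave 5 probes of the 154 worm miRNA probes on each array. In the WBcel235 gene table, mir-229, mir-64, mir-65 and mir-66 are 4 miRNA genes in a row on chromosome III, all inside the span of gcn-1, whose yeast relative GCN1 acts in the control of translation. The name of a single cluster does not cover mir-63, which lies on chromosome X outside any annotated gene. The array held no probe for the other arm of any of the 5.

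A miRNA guides an Argonaute protein to messenger RNAs by pairing through its seed, a short stretch near its 5′ end, and lowers their translation or stability. These 5 miRNAs are known as one family because they share a seed, so they may act on overlapping targets. Neighbouring miRNA genes are often made from one primary transcript, after which each hairpin is cut out on its own. Worms that lack whole miRNA families are in many cases viable and look normal under laboratory conditions.

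RNA came from dauer larvae, a stress-resistant arrested stage, about 100000 per container at 23 °C for 16.5 days, collected 7 h after landing or after the ground run. The mutant group is titled LS292, with strain MT4930 and genotype ced-1(n1995) I given elsewhere in the labels. LS292 is better known as a dys-1 strain, so the mutant's genotype is not settled, and ced-1, whose protein lets neighbouring cells take up dying ones, was not measured on these arrays. The wild type was N2 Bristol. Each strain had 1 array for static flight (space radiation of 1.92 mGy with gravity peaks up to 0.01 g), 1 for flight in a 1 g centrifuge (2.27 mGy) and 1 for a static slot on the ground, started 2 days later.

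The number of arrays, 6 with 1 per strain and exposure and no repeat of samples, limits the precision of every value. Intensity is the median over the 4 spots of a probe of foreground minus local background, in arbitrary units. The control-probe limit, the 95th percentile of 476 spots of 10 spike-in control probes, was 97 (static), 75.25 (1 g) and 150 (ground) on the mutant arrays and 14, 20 and 13.25 on the N2 arrays. Worm probes above it numbered 52, 90 and 36 of 154 on the mutant arrays and 27, 31 and 30 on the N2 arrays. The dauer and lifespan miRNA miR-71-5p read 3387.5, 10498 and 861 in the mutant but 1, -8.5 and -5 in N2, and the muscle miRNA miR-1-3p was under the limit on the mutant ground array and on all 3 N2 arrays. Other marker miRNAs were above it in N2: larval timing miRNAs at 5, 5 and 3 of 5 for static, centrifuge and ground in the mutant and 2 of 5 on each N2 array, neuron miRNAs at 2, 2 and 0 of 4 on the mutant arrays and 1, 1 and 2 of 4 on the N2 arrays, and embryo and germ line miRNAs at 2, 6 and 3 of 8 on the mutant arrays and 1 of 8 on each N2 array. All mutant arrays stand in one deposited table and all N2 arrays in another, so strain cannot be told apart from table. Fewer cells that make a miRNA and less of it per cell cannot be told apart in RNA from whole worms.

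All 5 miRNAs gave signal in the mutant and none above the control-probe limit in N2. Over the N2 arrays, 0 of 15 member values passed the limit, and medians lay between -146.5 and 8.5. On the mutant arrays 4 of 5 members passed it in static flight, 5 of 5 in the centrifuge and 3 of 5 on the ground, where miR-63-3p and miR-229-5p fell short.

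miR-66-5p, whose gene comes last in the row on chromosome III, read 690.5 in static flight, 2718 in the centrifuge and 346 in the ground slot for the mutant, against -10.5, 6.5 and -10.5 in N2. The centrifuge array was the brightest and the ground array the dimmest. Its 4 ground spots read 211, 315, 377 and 2606, so 1 spot reached the level of the centrifuge spots, which lay between 2411 and 3132.

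miR-65-5p, whose gene lies next to mir-66, read 382.5, 1341 and 865 in the mutant in static flight, centrifuge and ground, against -3.5, 2.5 and -10 in N2. Here the static array was the dimmest of the mutant arrays. The ground spots spanned 124 to 3733 and enclosed all static spots (265 to 435) and all centrifuge spots (1160 to 1486).

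miR-64-5p, whose gene lies between mir-229 and mir-65, had the same order of levels, 212 in static flight, 835.5 in the centrifuge and 409.5 on the ground, against -146.5, 2.5 and -23 in N2. Its ground spots fell into a low pair, 90 and 148, and a high pair, 671 and 756. The low pair lay below all static spots (192 to 333), and the high pair above them.

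miR-63-3p, whose gene on chromosome X neighbours mir-2217.2, which had no probe, read 145 in static flight, 648 in the centrifuge and 74 in the ground slot for the mutant, against 4, 8.5 and -13.5 in N2. Its static spots (134 to 164) and centrifuge spots (587 to 806) all lay above its highest ground spot, 105. Before background subtraction its ground spots reached 372, above all static spots (183 to 220) and below all centrifuge spots (652 to 883). The ground value was under the control-probe limit.

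miR-229-5p, whose gene comes first in the row, read 69, 153 and 132 in the mutant in static flight, centrifuge and ground, against -122, 8 and -11.5 in N2. The static and ground values were under the control-probe limits of their arrays, and the ground spots (77 to 211) enclosed the centrifuge spots (141 to 165). miR-229-5p therefore had 1 array, the mutant centrifuge array, on which it stood clear of the control probes.

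**Figure D1:**
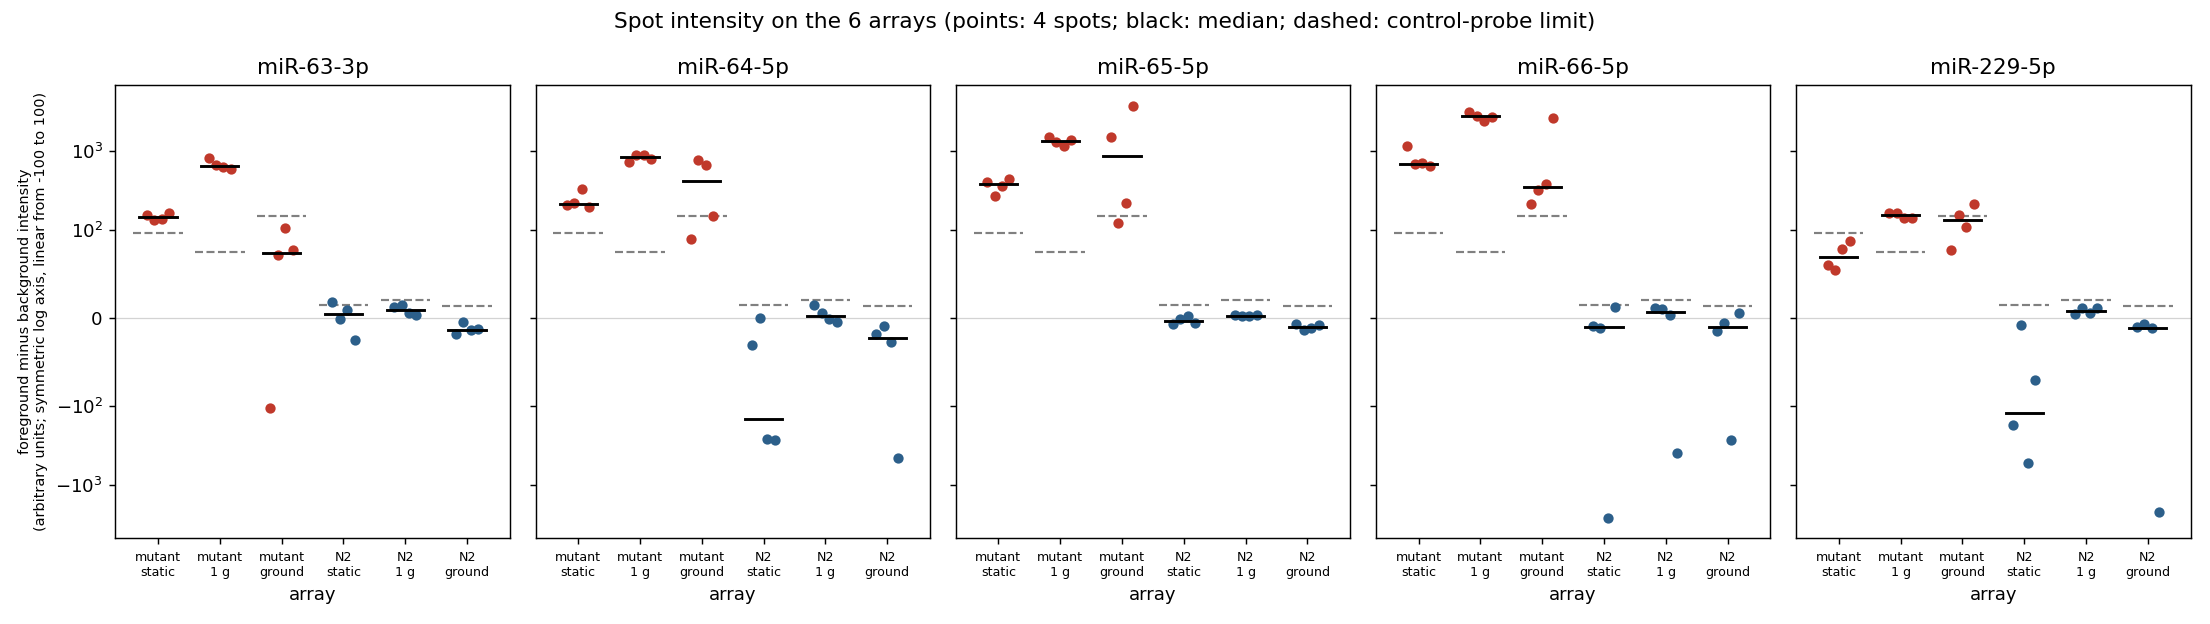
Foreground minus background intensity of the 5 miRNAs on each array (symmetric log axis, linear near 0), with 4 spots as points, their median as a black line and the control-probe limit of the array dashed. Mutant arrays are red and N2 arrays blue. On the N2 arrays the medians lie between -146.5 and 8.5, and on the mutant ground array the spots of miR-65-5p spread between 124 and 3733.

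The dark N2 values were also looked at before background subtraction. Of the 60 member spots on the N2 arrays, 1 was above the control-probe limit after subtraction, at 18 for miR-63-3p in static flight. Below 0 were 37 of the 60, the lowest at -2611 for miR-66-5p in static flight. The foreground of the member spots reached 157 on the static array, 106 on the centrifuge array and 113 on the ground array. The 95th percentile of the control-probe foreground was 158.5, 124.5 and 102.25. On the ground array a spot of miR-229-5p, at 113, was thus above that percentile before subtraction, and on the other N2 arrays no member spot was.

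To compare arrays, each was multiplied by 1 factor that levels the median of 8 worm probes, those reading 50 or more on all 6 arrays and none of them a member. Values under 50 were then raised to 50, and log2 was taken. Differences within the mutant set 1 array against 1 and have no test. The error beside each is a technical standard error (SE) from the 4 spots of both arrays and does not cover the scaling. It is the error of a mean of floored log2 values, whereas the differences are between medians. Spots raised to the floor can make it too small. This touches miR-63-3p on the ground array, with a spot at -108, and the lowest spots of miR-229-5p on the centrifuge array.

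In orbit, 4 of the 5 miRNAs had like differences in the mutant. With this scaling and floor miR-229-5p stood apart. Between static and centrifuge flight the log2 difference was 0.02 (technical SE 0.12) for miR-63-3p, 0.20 (0.19) for miR-64-5p, 0.37 (0.18) for miR-65-5p and 0.20 (0.21) for miR-66-5p. All 4 values lay within a log2 unit of 0, and the spots of both arrays overlapped for each. miR-229-5p differed by 1.03 (0.16), with its static value under the control-probe limit, so the size of that difference was not measured on both sides. Its scaled centrifuge value, 50.4, lay at the floor of 50. With a floor of 100 its difference was 0.04, within the range of the other 4. It was also within their range with quantile normalization (-0.31) and with the control-probe level subtracted (0). By values, 1 of 5 members reached 2-fold higher in static flight and 0 reached 2-fold lower, where 50 of 134 compared miRNAs (37.3%) were higher and 1 (0.746%) lower. The 4 static spots lay wholly above the 4 centrifuge spots after scaling for 1 of 5 members, miR-229-5p, against 87 of 134 miRNAs (64.9%), and wholly below for 0, against 4 of 134 (2.99%).

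The direction of the orbit difference rests on the scaling. Unscaled, the centrifuge values were above the static ones, 4.47 times for miR-63-3p, 3.94 times for miR-64-5p, 3.51 times for miR-65-5p, 3.94 times for miR-66-5p and 2.22 times for miR-229-5p. The 51 worm probes above the control-probe limit on both arrays had a median of 3.16 times. On the log2 scale the median of the 5 members lay 0.32 below the median of those 51 probes, 0.20 against 0.52 (quartiles 0.20 and 1.45).

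Against the ground, the values of the 5 miRNAs spread apart by the median of the spots. Only 3 members were measured on both sides, with technical SEs from 0.79 to 1.16 for static flight. Whether the 5 moved together is thus not settled. For static flight, miR-66-5p gave a scaled intensity of 1029 against 321 on the ground (log2 difference 1.68, technical SE 0.83) and miR-63-3p 216 against 68.6 (1.66, technical SE 0.21). miR-65-5p gave 570 against 802 (-0.49, technical SE 1.16), miR-64-5p 316 against 380 (-0.26, technical SE 0.79) and miR-229-5p 103 against 122 (-0.25, technical SE 0.35). The ground values of miR-63-3p and miR-229-5p were under the control-probe limit, so their differences from the ground are not measured on both sides. By the median of the spots the neighbours miR-65-5p and miR-66-5p differed in sign, but by the mean of the spots both were below 0, at -2.22 and -0.43. The errors of miR-64-5p, miR-65-5p and miR-229-5p exceed their differences.

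A 2-fold excess in static flight was seen for 2 of 5 members and a 2-fold deficit for 0, where 35 of 135 compared miRNAs (25.9%) were higher and 10 (7.41%) lower. For miR-63-3p, 1 of these 2, only an excess of at least 1.55-fold remains when the control-probe limit stands in for its ground value. This bound rests on the scaling, for the unscaled static value of 145 was under the unscaled ground limit of 150. Thus miR-66-5p was the 1 member measured on both sides that reached 2-fold. The member median was -0.25, against 0.53 over the 135. The 4 static spots lay wholly above the 4 ground spots for 1 of 5 members, miR-63-3p, and for 25 of 135 compared miRNAs (18.5%). They lay wholly below for 0 members and for 3 of 135 (2.22%). Both counts are after background subtraction, before which a ground spot of miR-63-3p was above all its static spots. For miR-66-5p, 3 of 4 printed subgrids gave a difference above 0 and the other gave -1.35.

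The centrifuge flight gave a like picture against the same ground array, so both sets of values share it. miR-63-3p gave 213 against 68.6 on the ground (1.64, technical SE 0.22), and miR-66-5p 895 against 321 (1.48, technical SE 0.81). miR-65-5p gave 442 against 802 (-0.86, technical SE 1.16), miR-64-5p 275 against 380 (-0.46, technical SE 0.78) and miR-229-5p 50.4 against 122 (-1.28, technical SE 0.32). Higher by at least 2-fold were 2 of 5 members and lower 1 of 5, where 12 of 136 compared miRNAs (8.82%) were higher and 25 (18.4%) lower. The excess of miR-63-3p is shown only as at least 1.53-fold with this scaling. The 2-fold deficit of miR-229-5p rests on a ground value under the limit and came to -0.29 with a floor of 100. The member median was -0.46, against -0.33 over the 136.

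The spots of miR-63-3p again lay wholly above those of the ground array, as did those of 8 of 136 miRNAs (5.88%). Those of miR-229-5p lay wholly below after scaling, as did those of 67 of 136 (49.3%), and overlapped before it. The signs of miR-64-5p and miR-65-5p here turned with the scaling, to 1.03 and 0.63 with none, 0.56 and 0.16 with scaling within each strain and 0.52 and 0.12 with the authors' normalized intensity.

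**Figure D2:**
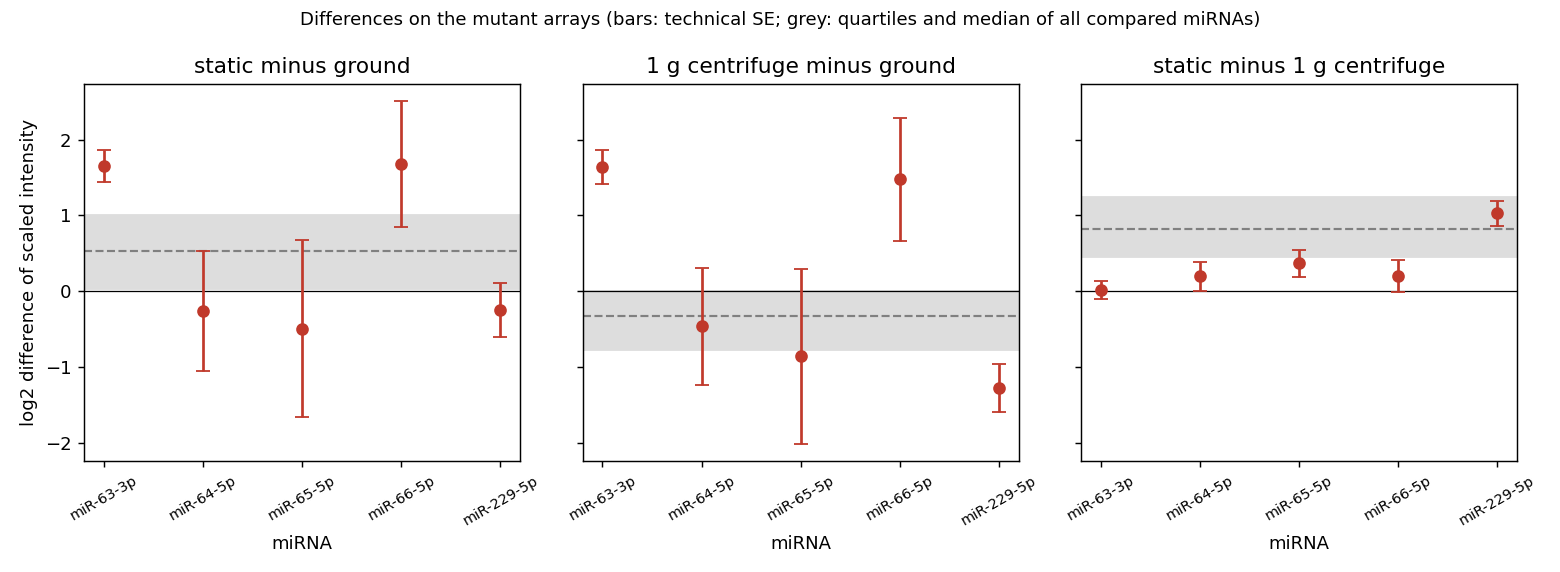
Log2 differences of scaled intensity between the mutant arrays for each miRNA, with the technical SE from 4 spots per array as bars, and the quartiles (grey band) and median (dashed) of all compared worm miRNAs behind them. In the right panel 4 of the 5 points lie between 0.02 and 0.37, while both panels against the ground show miR-63-3p and miR-66-5p above 1 and the other three below 0, with the ground values of miR-63-3p and miR-229-5p under the control-probe limit.

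The spread among the members put this in numbers. The distance between the highest and lowest member was 1.01 on the log2 scale for static flight minus centrifuge, 2.17 for static minus ground and 2.92 for centrifuge minus ground. The median absolute difference between 2 members was 0.27, 1.91 and 2.02 for the same comparisons, against 0.59, 0.77 and 0.69 between any 2 compared miRNAs, many of them dim. Between any 2 miRNAs above the control-probe limit on both arrays it was 0.87, 1.27 and 1.35. The range was smallest in orbit under all 12 settings of the processing that were run. Settings that change only the factor of each array shift all members alike, so they could hardly alter this order. All settings also share the same ground array.

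The spots of the ground array moved with this spread. The median SD of a member's 4 spots on the log2 scale was 0.32 on the mutant static array, 0.15 on the centrifuge array and 1.55 on the ground array. Over all worm probes above the control-probe limit it was 0.31, 0.10 and 1.36. High ground spots fell in different printed subgrids for different members: numbers 1 and 4 for miR-65-5p, 2 and 3 for miR-64-5p and 4 for miR-66-5p. What part of the spread against the ground comes from these spots was not tested.

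**Figure D3:**
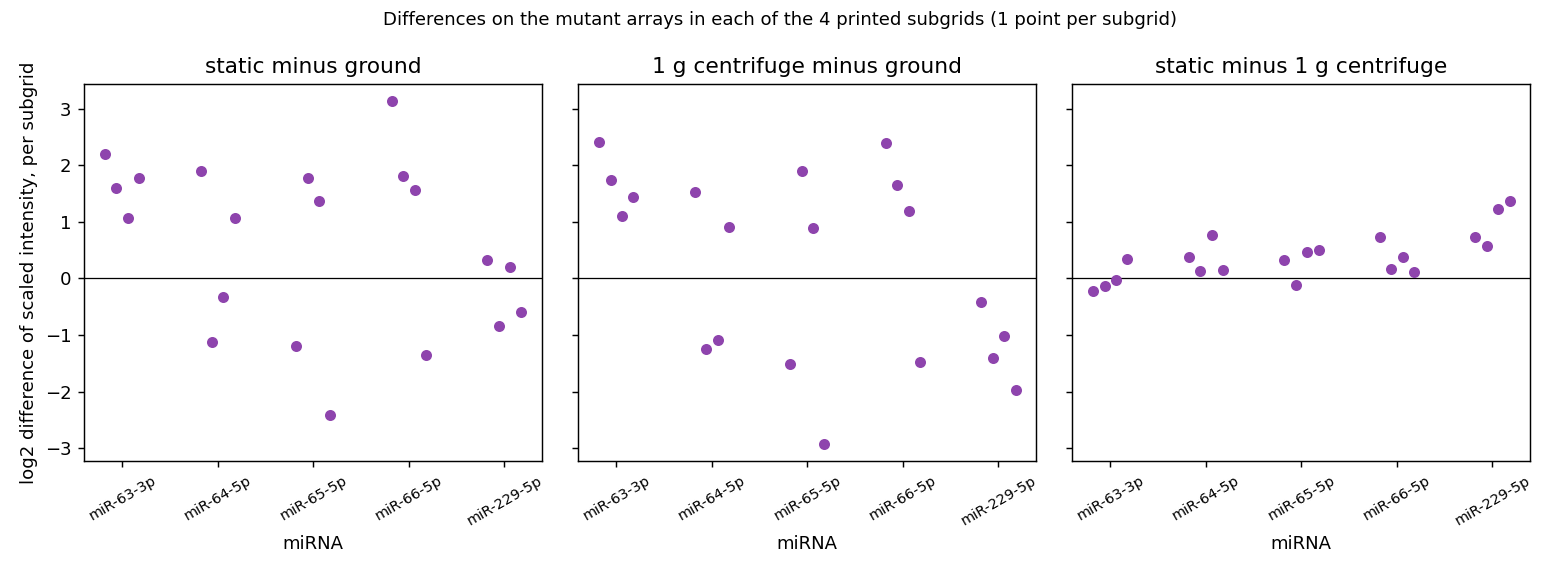
Log2 differences of scaled intensity between the mutant arrays, taken within each of the 4 printed subgrids (1 point each). Against the ground, miR-65-5p runs from -2.42 to 1.78 for static flight and from -2.92 to 1.89 for the centrifuge, whereas in the right panel its points lie between -0.11 and 0.51.

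Other groups of probes for miRNA genes no more than 10000 bases apart in the gene table gave a rough yardstick. Some of these groups hold only both arms of a single gene. Most had fewer than 2 probes above the control-probe limit on both arrays compared. In orbit the 4 chromosome III members had a median pair difference of 0.41, and 9 of 18 other groups had a smaller one (median over the 18 groups 0.41). For static minus ground it was 1.09, with 9 of 17 other groups smaller (median 1.01), and for centrifuge minus ground 1.38, with 13 of 17 smaller (median 1.07). The 3 neighbours above the control-probe limit on both flight arrays, miR-64-5p, miR-65-5p and miR-66-5p, lay within 0.17 of each other in orbit. Other groups with at least 2 such probes had ranges from 0.012 to 3.14 there. Against the ground the same 3 neighbours spanned 2.17 for static flight and 2.34 for the centrifuge. Other groups with at least 2 probes above the limit on both arrays spanned 0.41 to 1.78 and 0.55 to 2.21. These groups had only 2 such probes each, except the one that spanned 2.21, which had 3. A range tends to grow with the number of probes, so these spans are not like for like.

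Between the strains, 3 of 5 members passed in limma's additive model of strain and exposure, all of them higher in the mutant. After Benjamini-Hochberg adjustment 25 of 126 tested miRNAs (19.8%) passed, 24 of them higher and 1 lower. No member reached 50 on an N2 array, so each entered the test through the mutant arrays and could only come out higher there at this floor. All N2 values of the members were at the floor, so each fold is taken over the floor of 50 and changes with it. In limma the mutant stood 13.3-fold over this floor for miR-66-5p (log2 estimate 3.74, SE 0.47, adjusted p = 0.00572). It stood 11.7-fold over it for miR-65-5p (3.55, SE 0.37, adjusted p = 0.00307 in limma) and 6.41-fold for miR-64-5p (2.68, SE 0.34, adjusted p = 0.00578 in limma). Each of these miRNAs was higher in 3 of 3 exposures. In the same order the log2 estimates were 5.057, 4.874 and 4.003 with a floor of 20 and 2.735, 2.552 and 1.681 with a floor of 100. miR-63-3p gave 1.55 (SE 0.47, adjusted p = 0.0788) and miR-229-5p 0.78 (SE 0.41, adjusted p = 0.298), and neither passed in limma. Both passed with scaling within each strain (adjusted p 0.00011 and 0.013 in limma) and with a floor of 20 (0.0013 and 0.023), and miR-229-5p passed as lower in the mutant with normexp background correction (-1.40, adjusted p = 0.0069 in limma). These 2 were also under the control-probe limit on 1 and 2 of the 3 mutant arrays.

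Since the N2 values had no spread at the floor, the spread in the fit comes from the mutant arrays and from limma's pooling over miRNAs. The calls depended on the arrays and the floor: without the mutant static or the N2 static array 0 of 5 members passed in limma (lowest adjusted p 0.12), and with a floor of 100 likewise 0 (lowest 0.057). Without the mutant or N2 centrifuge array miR-66-5p missed the threshold (adjusted p = 0.067 in limma), and without the mutant or N2 ground array miR-64-5p did (adjusted p = 0.0781 in limma). With normexp background correction, which models background instead of subtracting it, the estimates of miR-64-5p, miR-65-5p and miR-66-5p came to 0.07, 0.77 and 0.98 and none passed (adjusted p 0.90, 0.14 and 0.060 in limma). miR-66-5p also missed the threshold with no filter on dim probes, quantile normalization and control-level subtraction (adjusted p 0.051, 0.053 and 0.094 in limma), and miR-64-5p with foreground alone (0.13).

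The exposure terms of the same model called no member. The estimates ran from -0.25 to 0.84 for static minus ground (lowest adjusted p 0.896 in limma), from -0.64 to 0.82 for centrifuge minus ground (adjusted p 1 for all 5) and from 0.01 to 0.51 for static minus centrifuge (lowest adjusted p 0.821). limma passed 0 of 126 miRNAs (0%) in each of the 3, with 3, 1 and 0 at an unadjusted p under 0.05 and 0 members among them. With N2 at the floor throughout, each estimate is the mutant difference averaged with 0, so these tests do not show whether N2 moved with the mutant.

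Among 96 other miRNAs at 50 or more on all 3 mutant arrays, those whose levels over these 3 arrays were most like the mean of the members were miR-238-3p, miR-90-3p, miR-47-3p, miR-249-3p and miR-74-3p. The measure was the root mean square difference of log2 scaled intensity, each miRNA centred on its own mean: 0.068, 0.090, 0.12, 0.12 and 0.14 over the 3 mutant arrays, and 0.60, 0.26, 0.38, 1.10 and 0.25 over all 6. miR-249-3p was under the control-probe limit on all 3 mutant arrays, and miR-238-3p on the ground array. The members themselves stood at 0.31 for miR-64-5p, 0.45 for miR-65-5p, 0.56 for miR-229-5p, 0.61 for miR-66-5p and 0.66 for miR-63-3p over the 3 mutant arrays, where the median of the 96 others was 0.44. Over all 6 arrays they stood at 0.25, 0.63, 0.93, 0.77 and 0.65, and miR-64-5p was then the nearest of all. Each member is part of the mean it is set against, and over 6 arrays all members share the floor in N2.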

How the data were processed

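Each array of 10080 spots was hybridised in 1 colour with 1 µg of Hy3-labelled RNA, per the labels' protocols. The deposited tables give intensity by spot, both foreground and background-subtracted foreground, per the file headers. The sources used here do not name the scanner or the rule behind the authors' normalized intensity. The authors' value per probe equals the median of its spots. A total of 12 other value columns of the deposited tables were not used. Columns were assigned by the sample names 1A to 3C that titles and tables share, with probes named as in the newer table. Of 154 probes, 143 matched a gene in the WBcel235 table, used for names, chromosomes and neighbours only. The 126 probes that reached 50 on at least 2 arrays entered limma 3.58.1 (R 4.3.3), in an additive model of strain and exposure with 2 residual degrees of freedom, Benjamini-Hochberg adjusted at 0.05 over all of them. The labels name no separate cultures, and the p-values reflect the spread among these arrays alone, which may be technical. Within a strain, called means a 2-fold difference among miRNAs at 50 or more on at least 1 of the 2 arrays. The fit was tested on simulated data. By rule the text names the members and the 5 miRNAs most like their mean, and marker miRNAs for the check of the tissue. The members, lists and alternatives were chosen with earlier results of these data known. Sequences were not used here, so a list of miRNAs by shared seed was not made, and signal shared between probes of related miRNAs was not tested.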

Additional observations from a re-analysis of the deposited data

How the results depend on the processing

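No paired analysis was possible because the groups, of 1 array each, share fewer than 2 replicate numbers; the additive fit itself sets the strains against each other within exposures. Alternatives were 10 planned changes of spot summary, scaling, background and floor, and foreground alone, which was chosen after seeing the data; for the limma counts also no filter on dim probes and each array left out. Detection on all 6 arrays left no member to test. The member median for static minus centrifuge in the mutant, 0.20, was 0.031 when spots were averaged, -0.31 with quantile normalization, -0.62 with 75th percentile scaling, -1.37 with scaling within each strain, -1.98 with no scaling and -0.68 with the authors' values; the median over all compared miRNAs moved too, from 0.82 to 0.41, 0, 0, 0.13, -0.38 and 0.39. For centrifuge minus ground the member median, -0.46, was 1.03 with no scaling, 0.56 with scaling within each strain and 0.52 with the authors' values. For static minus ground, -0.25, it was above 0 with foreground alone (0.12). In N2 the medians of 0 became 0.037 (static minus ground), -0.11 (centrifuge minus ground) and 0.15 (static minus centrifuge) with normexp. The 3 members called between strains were 5 with scaling within each strain and with a floor of 20, 0 with a floor of 100, 1 with normexp, and 0 to 2 with 1 array left out. The 1 called with normexp was miR-229-5p, turned to -1.40 in the mutant; miR-63-3p turned to -0.78 there. No member was called for an exposure under any of 17 alternatives. With the mean of the spots miR-66-5p turned to -0.43 (static minus ground) and -0.47 (centrifuge minus ground). miR-229-5p turned to 0.21 for centrifuge minus ground with no scaling, and for static minus centrifuge to -0.31 with quantile normalization, -0.55 with scaling within each strain and -1.15 with no scaling; it came to 0 with the control-probe level subtracted. The causes of these shifts were not tested. miR-63-3p stayed above 0 against the ground in 11 of 11 alternatives, from 0.94 for static flight and from 0.80 for the centrifuge. All of these reprocess the same arrays, and its ground value was under the control-probe limit.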

Other observations

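The authors' normalized intensity stands in a pair of deposited tables that label it differently. In the series-wide one, all 6 columns match, to a relative tolerance of 0.0001, a different array of the expression table than the one named. Under the label of the mutant static array it gives miR-66-5p as 9.49, miR-65-5p as 4.68 and miR-63-3p as 2.26, which the expression table gives for the mutant centrifuge array; the expression table's own mutant static values are 5.93, 3.28 and 1.24. Under the label of the N2 static array it gives 5.93, 3.28 and 1.24, so read by these labels N2 would carry the members' signal in static flight. By the medians of the raw spots, with their sample names, all values of these 5 miRNAs above the control-probe limit lie on the mutant arrays. The medians of the 6 columns of that table, as labelled, are 0.176, 0.118 and 0.325 for mutant static, centrifuge and ground and 0.541, 0.341 and 0.106 for N2. Its scale, centring and direction are those of the authors' normalized intensity; which labels are right is unknown.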
